A study of Mus musculus with 8 samples.

Results

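The genes described here encode the proteins of the mitochondrial ribosome. They were taken from the gene count table as all protein-coding genes whose name begins with Mrpl or Mrps followed by a digit, and 78 of the 54532 genes in the table, of which 22046 were protein-coding, met this rule. By textbook assignment, 51 of the 78 encode proteins of the large subunit and 26 proteins of the small subunit. Mrps30 and Mrps18a are counted with the large subunit, where their proteins sit despite the names. Mrps36 carries the family name but encodes a subunit of the 2-oxoglutarate dehydrogenase complex. Of the large-subunit and small-subunit proteins, 46 are listed with a bacterial counterpart and 31 as specific to mitochondrial ribosomes. Mrps18a and Mrps18b, although relatives of bacterial S18, are counted among the 31, and Mrps18c among the 46.

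The mitochondrial ribosome translates the few mRNAs of the mitochondrial genome, all of which encode core subunits of the respiratory chain and ATP synthase. Its RNA comes from the mitochondrial genome, whereas all of its proteins are encoded in the nucleus, translated on cytosolic ribosomes and imported. Brain tissue depends heavily on oxidative phosphorylation, and inherited defects of several of these proteins cause disease of brain and heart.

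The libraries were made from brain of male mice aged 3 months, with 4 libraries from wild-type animals (WT) and 4 from animals labelled as knockouts of Nsun5 (KO), an enzyme that methylates a cytosine of ribosomal RNA. Ribosome profiling, which sequences RNA fragments protected by ribosomes from nuclease (footprints), was accompanied by mRNA counts under the same library names, so that the question put to each gene was whether its mRNA, its footprints or the ratio of both differed between the genotypes. No other allele or agent was given for either group, and the kind of Nsun5 deletion was not given in the sources used here. The notes name 5 animals per genotype but tie no library to an animal and do not say that libraries of 1 name come from the same animal, so a p-value here reflects how much the libraries vary, which may in part be technical.

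Footprint libraries held 1.20 to 3.49 M gene counts (M, mega) in WT and 0.586 to 1.30 M in KO, and mRNA libraries held 15.6 to 17.8 M. The median count of the 78 genes per library was 24.5 to 41 footprints in WT, 6 to 26.5 footprints in KO, and 409.5 to 498 in mRNA. Nsun5 mRNA did not separate the groups, with 82 to 109 counts in WT and 83 to 124 in KO (log2 fold change 0.12 ± 0.15, SE, n = 4 each, adjusted p = 0.820 in edgeR), so directions are given between libraries as labelled. WT mRNA libraries 1 and 2 lay far from the rest on principal component 1, at 25.7 and 24.0 against −14.2 to −4.47 in the other 6 mRNA libraries. Markers of neurons, oligodendrocytes, astrocytes and microglia were all present in every group, as the label brain implies. Of 10 oligodendrocyte and myelin markers, 10 had a negative mRNA change and 0 passed the test, and their summed level was 7200 to 7883 CPM (counts per mega-count of the scaled library size) in WT and 4660 to 6427 in KO. Of 6 choroid plexus and ependyma markers, 6 were negative in mRNA (summed 315 to 1140 CPM in WT and 52.6 to 1162 in KO), and of 8 neuron markers 7 were positive in mRNA (6938 to 7372 and 7872 to 8604), with 0 passing in either list. In footprints, 7 of the 8 neuron markers were negative instead (3483 to 5189 CPM in WT and 3684 to 4084 in KO). The 10 oligodendrocyte and myelin markers were negative in footprints too (2557 to 3077 and 1778 to 2285), and 0 passed in either list. Whether these differences bear on the values below was not tested.

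The genes are spread over 17 chromosomes, with 11 on chromosome 11, 8 on chromosome 17 and 7 on chromosome 6. RefSeq promoter windows of 300 bases (250 before to 50 after the start, GRCm38.p6) were at hand for 69 of the 78 genes and were searched on both strands for motifs of 3 factors known to act at many genes for mitochondrial proteins, and for the TATA box. CCGGAAG, the core bound by factors of the ETS family, was in windows of 26 of the 69 genes (37.7%) and of 13.3% of all 16497 genes in the table. AAGATGGCG, the motif of YY1, was at 8 genes (11.6%) against 2.25% of all, and CGCATGCG, the inner part of the motif of NRF1, at 7 (10.1%) against 2.89%. At least 1 of these 3 motifs was at 36 of the 69 genes, and 33 had none of them. TATAAA was at 5 genes (7.25%) against 14.3% of all. A match describes letters in this window and is no evidence of binding. The windows below are the 130 bases before the RefSeq start of 3 genes of the large subunit. They are shown because Mrpl20 and Mrpl58 had the lowest p of the genes with more KO footprints and Mrps18a the lowest p of those with fewer. Capitals mark a whole ETS core within the stretch, which lies 17 bases before the start of Mrpl58 and 26 before that of Mrps18a, while another core at Mrpl58 crosses the start. No 2 of the different motifs overlapped in these windows. None of the 4 motifs occurs in the stretch of Mrpl20 (chr4:155802748-155802877, plus strand). The others are chr11:115403622-115403751 for Mrpl58 and chr17:46110874-46111003 for Mrps18a, both on the plus strand.
Mrpl20: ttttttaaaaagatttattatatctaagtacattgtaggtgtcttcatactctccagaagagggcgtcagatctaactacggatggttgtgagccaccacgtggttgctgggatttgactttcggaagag
Mrpl58: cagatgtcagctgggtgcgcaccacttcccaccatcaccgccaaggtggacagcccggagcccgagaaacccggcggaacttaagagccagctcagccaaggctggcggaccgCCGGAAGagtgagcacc
Mrps18a: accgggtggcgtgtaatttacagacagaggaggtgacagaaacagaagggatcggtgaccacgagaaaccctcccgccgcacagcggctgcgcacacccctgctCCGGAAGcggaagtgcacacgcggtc

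In WT brain, transcripts of this family were of moderate abundance. The median WT level was 10.95 RPKM in mRNA and 5.75 RPKM in footprints, where RPKM are reads per kilobase of gene and mega-read as the authors scaled them, separately for each kind of library. Nuclear subunits of respiratory complex I had a median of 50.7 RPKM in mRNA and cytosolic ribosomal proteins one of 82.0 RPKM. All protein-coding genes with a mean of at least 1 RPKM had a median of 7.20 RPKM in mRNA. The large-subunit genes had a median of 12.2 and the small-subunit genes of 9.85 RPKM in mRNA.

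Although the proteins are built into 1 particle, their mRNA levels per length were not equal. Among the 77 genes with any count, WT mRNA means ran from 1.75 to 47.9 RPKM. Mrpl41 (mitochondria-specific, large subunit) was the highest at 48.5, 47.1, 47.8 and 48.3 RPKM in WT libraries 1 to 4. All 4 values lay above every value of the next gene, Mrps21 (small subunit, with a bacterial counterpart), at 40.7 ± 5.22 RPKM (SD, n = 4). Mrps21, Mrpl34 (34.7 ± 6.33), Mrpl43 (32.7 ± 1.43) and Mrpl27 (31.6 ± 4.29) followed in mRNA RPKM, and each overlapped its neighbour in that order. At the low end, Mrpl33 (1.75 ± 0.188 RPKM in mRNA) lay below every value of Mrps35 (2.37 ± 0.153). Another annotated gene on the same strand, Gm43809, covers 67447 of the 67450 bases of the Mrpl33 span, so the level of Mrpl33 is uncertain. Mrps35, Mrps30 (2.57 ± 0.404) and Mrps10 (2.69 ± 0.291) overlapped one another. The WT mRNA level per length fell with the length the authors assigned to the gene (Spearman rho −0.83 over 77 genes, which share libraries and the length that divides the counts), while mRNA counts did not (rho 0.23). In mRNA counts per gene, the WT means spanned 143 to 1204. This correlation is across genes, which are not independent replicates.

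Footprint levels followed a similar order with more scatter. The 5 highest WT means were those of Mrpl2 (22.3 ± 5.68 RPKM), a conserved protein next to the peptidyl transferase centre, Mrpl28 (20.8 ± 2.33), Mrpl41 (20.2 ± 6.94), Mrps28 (19.3 ± 3.14) and Mrps21 (16.6 ± 2.54), and each overlapped its neighbour. The lowest were Mrpl33 (0.295 ± 0.056), Mrps10 (0.403 ± 0.234), Mrpl23 (0.588 ± 0.205) and Mrps18b (1.04 ± 0.249). The first 3 overlapped, and Mrps18b lay above every value of Mrpl23. Footprint and mRNA RPKM were correlated across the 77 genes (Spearman rho 0.82), and footprint and mRNA counts, which do not share the division by length, less closely (rho 0.58). Mrpl53 had 0 counts in all 16 columns, where a count of 0 allows up to 3 counts. Its 900-base span lies wholly within Gm42688, an annotated protein-coding gene on the same strand with 80 mRNA counts, so its level is not known from these counts. In all, 41 of the 78 genes overlap another annotated gene, 13 of them on the same strand, and the strand setting of the counting is not given in the sources used here. Among these 13 are Mrpl33, almost wholly within Gm43809, and Mrpl2, whose 3911 bases lie wholly within Gm26904. Their places at the ends of the order are uncertain to that extent.

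**Figure D1:**
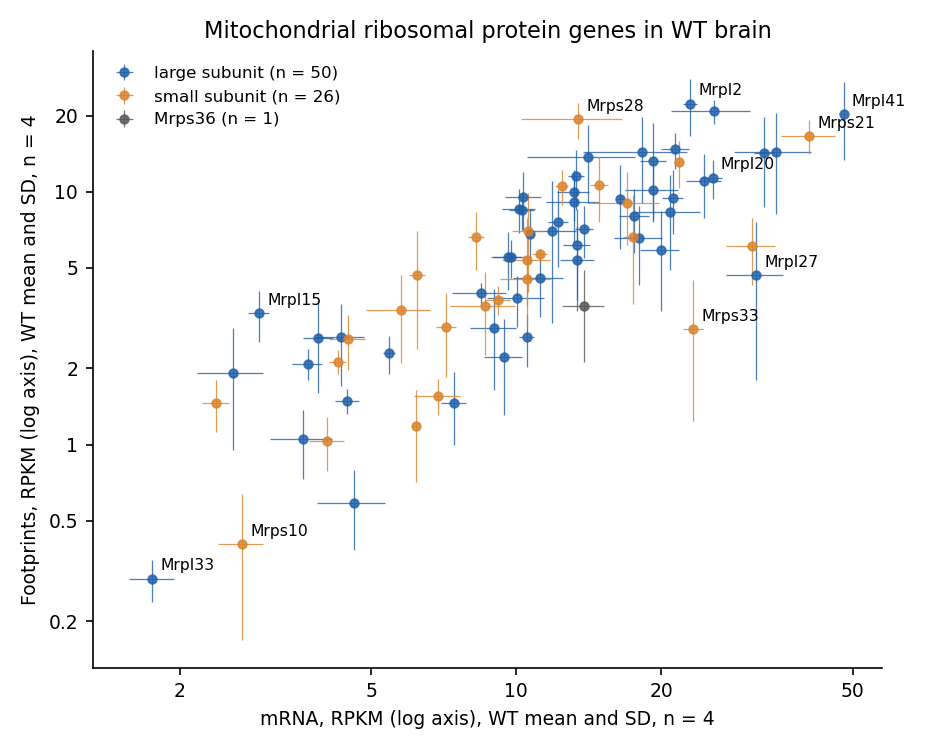
Mean level in the 4 WT libraries, mRNA against footprints, in RPKM on log axes, with SD as bars, for the 77 genes with any count (blue, large subunit; orange, small subunit; grey, Mrps36). Levels spread from 1.75 to 47.9 RPKM in mRNA, and Mrps33 and Mrpl27 lie below the bulk of genes while Mrps28 and Mrpl15 lie above it.

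Because each gene was counted in both kinds of library, footprints could be set against mRNA within WT. The log2 difference compares a gene with itself, so its gene length cancels, and is relative to the bulk of protein-coding genes. Counts cover the whole annotated gene in both kinds, and coding lengths were not used here. Of 74 genes measured, 33 passed edgeR's quasi-likelihood test (Benjamini-Hochberg adjusted p under 0.05), 21 with more footprints than the bulk and 12 with fewer. That is 44.6%, against 57.7% of all 9454 protein-coding genes tested (28.3% higher and 29.4% lower), so a call by itself is no more frequent in this family than elsewhere. The median log2 difference was 0.15, against 0.01 over all genes.

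The genes with most footprints for their mRNA came from both subunits. Mrps28, the counterpart of bacterial S1 (ENSMUSG00000040269, mm10 chromosome 3, 8802146 to 8923918), had 34, 53, 39 and 36 footprints and 149, 139, 233 and 190 mRNA counts in WT libraries 1 to 4. Its log2 difference was 1.65 ± 0.23 (SE, n = 4 libraries of each kind, adjusted p = 2.2e-05 in edgeR). Mrpl15, a large-subunit protein with a bacterial counterpart, had 63, 77, 95 and 62 footprints and 412, 392, 400 and 471 mRNA counts, a log2 difference of 1.30 ± 0.17 (adjusted p = 1.04e-05 in edgeR). The next genes by p, listed here by log2 difference, were Mrpl2 (1.08), Mrpl39 (1.03), Mrpl38 (0.94), Mrps14 (0.89), Mrpl58 (0.84) and Mrps17 (0.83). Mrpl14 had a higher p than these genes but a larger log2 difference, 1.115 (adjusted p = 0.00205 in edgeR). Mrpl39 resembles a threonyl-tRNA synthetase, and Mrpl58 is a peptidyl-tRNA hydrolase that frees stalled mitochondrial ribosomes.

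The genes with fewest footprints for their mRNA also came from both subunits. Mrps33, a mitochondria-specific protein of the small subunit (ENSMUSG00000029918, mm10 chromosome 6, 39801804 to 39810988), had 14, 7, 19 and 8 footprints and 636, 650, 645 and 695 mRNA counts in WT libraries 1 to 4. Its log2 difference was −1.97 ± 0.28 (SE, n = 4 libraries of each kind, adjusted p = 2.56e-05 in edgeR). Mrpl27, whose bacterial counterpart reaches into the peptidyl transferase centre, had 5, 28, 6 and 15 footprints and 500, 445, 502 and 663 mRNA counts, a difference of −1.54 ± 0.30 (adjusted p = 0.000444 in edgeR). Its footprints varied between libraries, with WT library 2 the highest. Mrps5 (log2 difference −1.30) and Mrps12 (−1.17), counterparts of bacterial proteins of the decoding site, were lower too, as were Mrpl48 (−1.23), Mrps16 (−0.999), Mrpl57 (−0.92) and Mrpl42 (−0.84). Mrps36, the dehydrogenase subunit, stood at −0.79.

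In this ratio 21 of 48 large-subunit genes and 11 of 25 small-subunit genes passed, with medians of 0.17 and 0.15, and the difference between the subunits was not tested. Across the 74 genes the log2 difference was unrelated in rank to gene length (Spearman rho 0.05) and to mRNA RPKM (−0.05). Among genes that act with the mitochondrial ribosome, 4 of 5 of its proteins with other names passed, all higher, including the GTP-binding protein Dap3 (1.30), Chchd1 (1.12) and the pentatricopeptide protein Ptcd3 (0.61). Of 15 genes listed as mitochondrial translation factors, 4 were higher and 3 lower, with the elongation factor Tufm at −1.44 and the exchange factor Tsfm at 1.11. Letm1, an inner-membrane protein that is on this list but is not itself a translation factor, was at 0.84. Of 20 factors of ribosome assembly and rRNA modification, 9 were higher and 3 lower, with the mitochondrial mRNA-binding protein Lrpprc at 1.41, the 16S rRNA factor Ngrn at −1.17 and the helicase Dhx30 at 0.74. Nuclear complex I subunits had 21 higher and 2 lower of 36 (median 0.75). Cytosolic ribosomal proteins, whose mRNAs carry a 5′ oligopyrimidine tract that controls their translation, had 3 higher and 65 lower of 75 (median −1.96). No test of the difference between these lists was made.

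**Figure D2:**
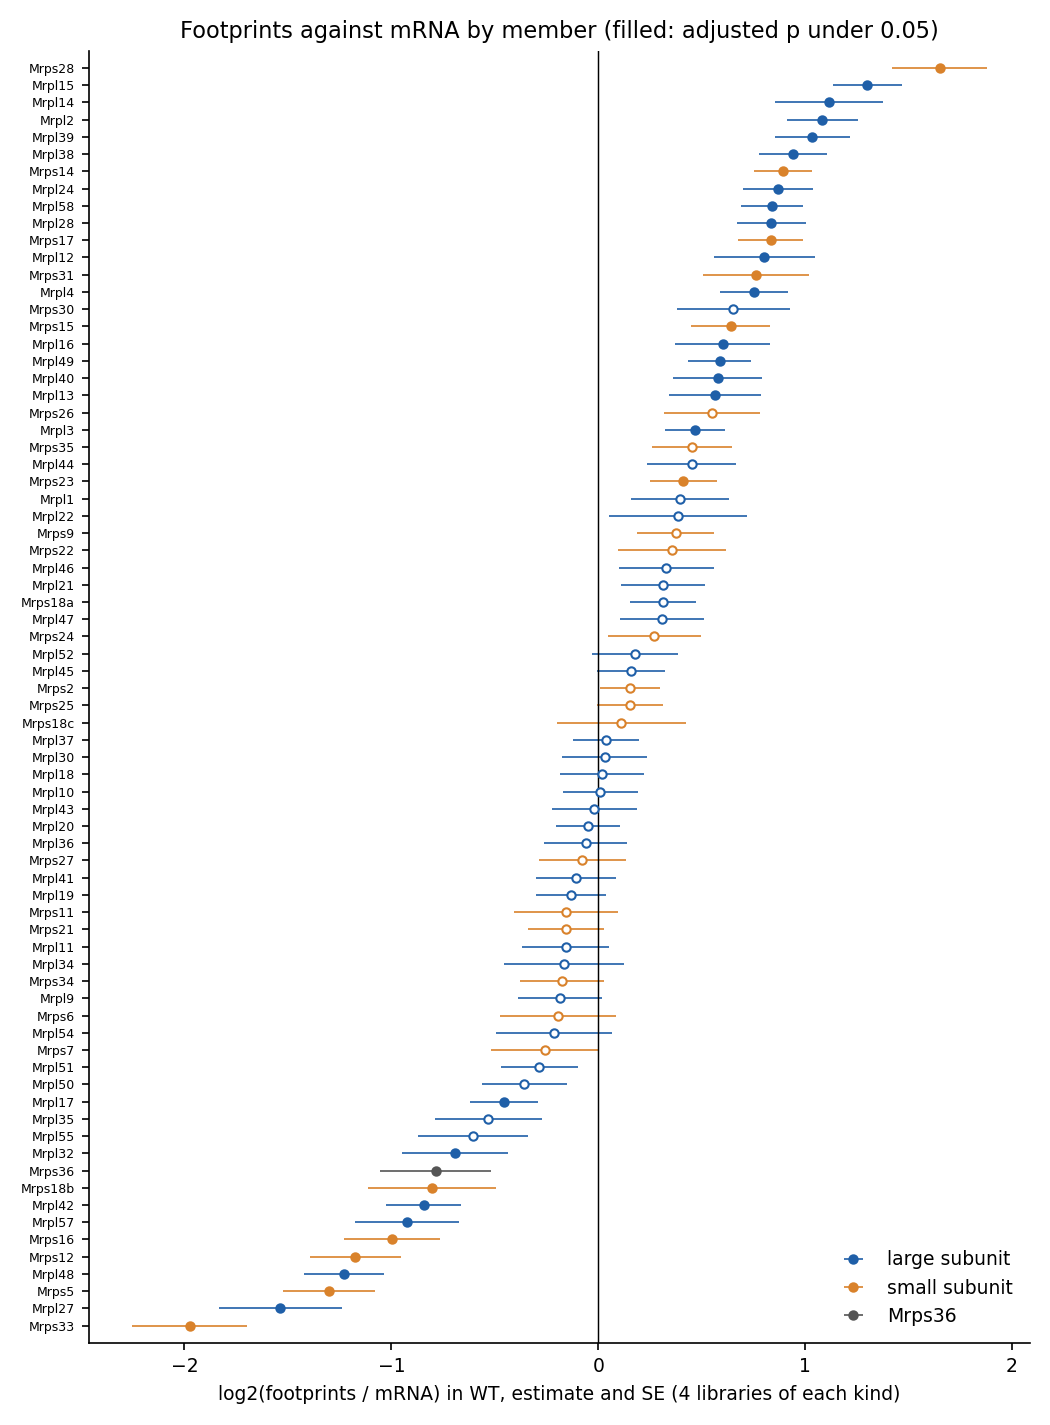
Log2 difference of footprints against mRNA in WT for each of the 74 genes measured, with SE, relative to the bulk of protein-coding genes (filled points, edgeR adjusted p under 0.05). Values run from −1.97 for Mrps33 to 1.65 for Mrps28, and genes of both subunits lie at each end.

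The same contrast in the KO libraries gave 26 passing genes, and 19 of them had passed in WT, all 19 with the same sign. Over the 74 genes, 66 had the same sign in both genotypes. The KO libraries were themselves among the alternative settings, over which 2454 to 5801 of all genes passed. The number of all genes passing in KO alone is not given here, so the 26 genes have no background share beside them. Shared calls and signs were not counted over all genes, so this agreement is not shown to be particular to the family. Mrps28 stood at 1.29 ± 0.32 and Mrps33 at −1.77 ± 0.33 in KO (SE, n = 4 libraries of each kind). Mrpl20 was 1 of 7 genes past the threshold in KO alone, at 0.91 ± 0.17 (adjusted p = 0.000372 in edgeR) against −0.05 ± 0.16 in WT. The test of that difference itself is the test of translational efficiency given further on, which it did not pass in edgeR.

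As a group, these genes took a share of counts that differed between the genotypes by less than the spread between libraries. Their share of protein-coding footprint counts was 0.276%, 0.261%, 0.277% and 0.252% for WT libraries 1 to 4, against 0.265%, 0.264%, 0.269% and 0.260% for KO libraries 1 to 4. The means were 0.267% ± 0.012 and 0.264% ± 0.00374 (SD, n = 4), and the KO values lay within the WT range. In mRNA the share was 0.230% ± 0.00628 in WT and 0.227% ± 0.0101 in KO, with overlapping values. Large-subunit genes held 0.174% to 0.196% of footprint counts in WT and 0.170% to 0.180% in KO, and small-subunit genes 0.0765% to 0.0875% and 0.0809% to 0.0941%. KO library 1 lay below the WT range for the large subunit, and KO libraries 1 and 3 lay above it for the small subunit. In whole tissue, fewer cells of a type and less RNA per cell cannot be told apart.

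**Figure D3:**
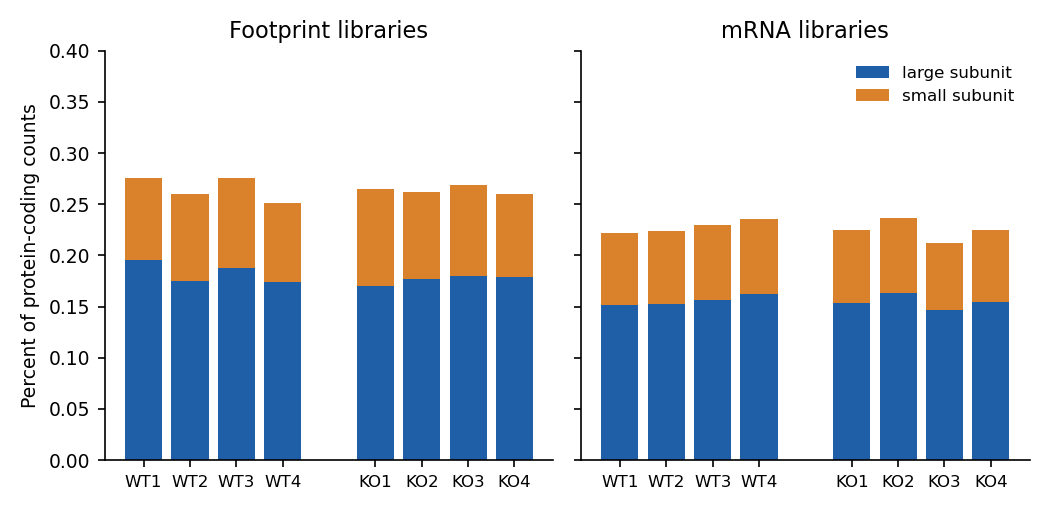
Share of protein-coding counts, in percent, held by the large-subunit genes (blue) and small-subunit genes (orange) in each library, footprints at left and mRNA at right. In footprints the large-subunit share was 0.174% to 0.196% in WT and 0.170% to 0.180% in KO, and the small-subunit share 0.0765% to 0.0875% and 0.0809% to 0.0941%.

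Single transcripts of the family differed little in mRNA between the genotypes. Of 77 genes tested, 0 passed edgeR, as did 0% of all 13058 genes tested, and DESeq2 and limma also called 0. An unadjusted p under 0.05 was found for 2 genes (2.6%), against 10.5% of all genes tested. There were 39 positive and 38 negative log2 fold changes, with a median of 0.00 (−0.01 over all genes). They ran from −0.25 for Mrpl10 to 0.23 for Mrpl16, and all 77 lay within 0.25 of no change, as did 83.3% of all genes tested. The 95% interval of each of the 77 genes lay within a 1.5-fold change in either direction. At this depth the mRNA data thus bound every measured gene of the family to less than a 1.5-fold difference, gene by gene and without adjustment for the number of genes.

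Mrpl10 encodes the protein that anchors the stalk of the large subunit. Its mRNA CPM were 46.2, 44.9, 38.2 and 42.0 for WT libraries 1 to 4, against 31.7, 37.4, 39.2 and 36.0 for KO libraries 1 to 4. The highest KO value, in library 3, exceeded the lowest WT value, so the groups overlapped (log2 fold change −0.25 ± 0.09, SE, adjusted p = 0.406 in edgeR). Mrpl16, a conserved large-subunit protein, had 22.5, 20.1, 23.2 and 22.5 mRNA CPM across WT libraries and 28.6, 22.9, 27.1 and 25.3 across KO libraries. Its groups overlapped through KO library 2 (log2 fold change 0.23 ± 0.09, adjusted p = 0.433 in edgeR).

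The groups did not overlap in mRNA CPM for 2 of the 77 genes, or 2.6%, where 5.59% of all genes tested did not overlap (2.85% higher and 2.74% lower in KO). Mrps5 had 42.4, 40.5, 42.1 and 40.9 CPM in WT, against 43.5, 43.9, 43.7 and 44.3 in KO, a narrow gap with an mRNA difference of 0.08 ± 0.06 on the log2 scale (SE, adjusted p = 0.676 in edgeR). Mrpl41 had 44.2, 42.7, 43.5 and 43.5 CPM in WT, against 42.3, 41.3, 34.1 and 37.0 in KO, where libraries 3 and 4 were the lowest (log2 fold change −0.17 ± 0.08, adjusted p = 0.493 in edgeR). Other genes named by the lowest p were Mrps2 (−0.17), Mrps16 (−0.20) and Mrpl24 (−0.16) with negative log2 fold changes, and Mrpl51 (0.18), Mrpl55 (0.14) and Mrpl58 (0.09) with positive ones. None of these passed.

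Footprint changes were measured less precisely, with a median SE of 0.36 on the log2 scale against 0.09 in mRNA. Genes of the family had a median of 24.5 to 41 footprints per WT library and 6 to 26.5 per KO library. How much of the SE comes from depth and how much from other spread between libraries was not tested. The filter on low counts (edgeR's filterByExpr, minimum count 10) kept 64 of the 78 genes. It left out Mrpl23, Mrpl27, Mrpl32, Mrpl33, Mrpl53, Mrps10, Mrps11, Mrps16, Mrps18b, Mrps18c, Mrps33, Mrps36, Mrps5 and Mrps6. Of the 64 tested, 0 passed edgeR, as did 0% of all 8476 genes tested. An unadjusted p under 0.05 was found for 4 (6.25%), against 5.52% of all genes tested. DESeq2 called 1 gene, Mrpl20, among 4 of all genes, and limma 0. There were 24 positive and 40 negative log2 fold changes with a median of −0.04 (0.00 over all genes), a distance from 0 smaller than the spread of the family's median between libraries (SD 0.13). The 95% interval lay within a 1.5-fold change for 2 genes and within a 2-fold change for 28, so for the other 36 genes a 2-fold difference lay within the interval. Medians were −0.10 for 46 large-subunit genes and −0.02 for 18 small-subunit genes.

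Mrpl20 carried the clearest footprint difference of the family. The gene (ENSMUSG00000029066, mm10 chromosome 4, 155802878 to 155809975) encodes a large-subunit protein whose bacterial counterpart binds rRNA early in assembly. The WT libraries 1 to 4 held 40, 51, 49 and 61 Mrpl20 footprints, and the shallower KO libraries 1 to 4 held 33, 78, 25 and 40. In CPM this was 22.7, 15.8, 17.9 and 22.99 for WT, against 40.3, 41.2, 48.1 and 39.3 for KO. Every KO library lay above every WT library, with the highest WT value at 22.99 and the lowest KO value at 39.3. The log2 fold change was 1.08 ± 0.21 (SE, n = 4 each), with a 95% interval from 0.63 to 1.54. Mrpl20 had the lowest unadjusted p of all 8476 genes and still did not pass edgeR (adjusted p = 0.638). The alternatives moved its log2 fold change only between 1.04 and 1.10, and its adjusted p between 0.0186 and 0.984. It passed DESeq2 (adjusted p = 0.0356) and edgeR with no filter on low counts (0.0186). Without each library in turn the log2 fold change was 0.98 to 1.18 (edgeR adjusted p 0.232 to 0.9995). The gene was already singled out in an earlier analysis of these data, so its rank is not independent of that choice.

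The mRNA of Mrpl20 did not show a difference of that size. It had 41.6, 42.7, 43.5 and 46.1 CPM in WT, against 51.0, 54.6, 37.3 and 47.5 in KO, with KO library 3 the lowest of all 8 and the groups overlapping (log2 fold change 0.13 ± 0.11, SE, adjusted p = 0.712 in edgeR).

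Mrpl58, the ribosome rescue hydrolase (ENSMUSG00000018858, mm10 chromosome 11, 115403752 to 115412674), was the other gene of the 64 whose groups did not overlap in footprint CPM, which makes 3.12%, where 3.61% of all genes tested did not overlap (1.57% higher and 2.04% lower in KO). It had 36.3, 26.7, 24.9 and 30.5 CPM in WT, against 48.9, 38.5, 46.1 and 54.0 in KO. All 4 KO values lay above the highest WT value, that of library 1. Its footprints differed by 0.66 ± 0.20 on the log2 scale (SE, n = 4 each, adjusted p = 0.863 in edgeR), and its mRNA CPM, 32.7 to 37.0 in WT and 34.9 to 38.7 in KO, overlapped. An antisense gene, Ict1os, with 40 mRNA counts in all libraries, covers 19.4% of the span of Mrpl58, which has 4796.

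On the lower side, Mrps18a had the lowest p. The gene (ENSMUSG00000023967, mm10 chromosome 17, 46110986 to 46128910) encodes the relative of bacterial S18 that sits in the large subunit. Mrps18a had 22.7, 24.5, 16.1 and 21.9 footprint CPM in WT, against 6.11, 17.9, 11.5 and 9.81 in KO. KO library 2 lay within the WT range and the other 3 KO libraries below it (log2 fold change −0.82 ± 0.34, SE, adjusted p = 0.881 in edgeR). Rsph9, on the opposite strand, covers 38.4% of the span of Mrps18a and had 155 footprints in all libraries, where Mrps18a had 276. Its mRNA log2 fold change was −0.10 ± 0.09.

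The same library stood out for the next genes. Mrpl41 had 18.1, 13.3, 28.2 and 15.8 footprint CPM in WT, against 8.55, 14.2, 11.5 and 7.85 in KO (log2 fold change −0.80 ± 0.36, SE, adjusted p = 0.881 in edgeR). Mrpl37, a mitochondria-specific large-subunit protein, had 20.4, 19.5, 16.5 and 17.7 CPM in WT, against 8.55, 17.4, 5.77 and 11.8 in KO (log2 fold change −0.64 ± 0.33, adjusted p = 0.881 in edgeR). In both genes KO library 2 was the only KO library that reached the WT range. Without it, the log2 fold change was −1.23 for Mrps18a, −1.05 for Mrpl41 and −1.01 for Mrpl37, and none passed. Other libraries moved the values towards 0 when left out. The change was −0.62 for Mrps18a without KO library 1, −0.53 for Mrpl41 without WT library 3 and −0.48 for Mrpl37 without KO library 3. KO library 2 also differed in composition, with 65.3% of its footprint counts on protein-coding genes against 29.9% to 39.6% in the other KO libraries and 34.7% to 65.9% in WT. Its part in these values was not tested.

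The other genes named by the lowest p were Mrpl38 (−0.42), a protein related to phosphatidylethanolamine-binding proteins, and Mrps28 (−0.51) with negative log2 fold changes. Mrpl39 (0.38), Mrps26 (0.45) and Mrpl55 (0.50) had positive ones. Single libraries moved these values: leaving out each in turn gave −0.52 to −0.22 for Mrpl38 (the latter without WT library 3) and −0.84 to −0.36 for Mrps28 (without KO library 2 and KO library 3). For Mrpl39 it gave 0.24 to 0.54 (without WT library 1 and WT library 4), for Mrps26 0.22 to 0.68 (without WT library 4 and WT library 2) and for Mrpl55 0.30 to 0.77 (without WT library 3 and WT library 4). All 5 had overlapping groups and adjusted p values of 0.881 to 0.918 in edgeR.

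**Figure D4:**
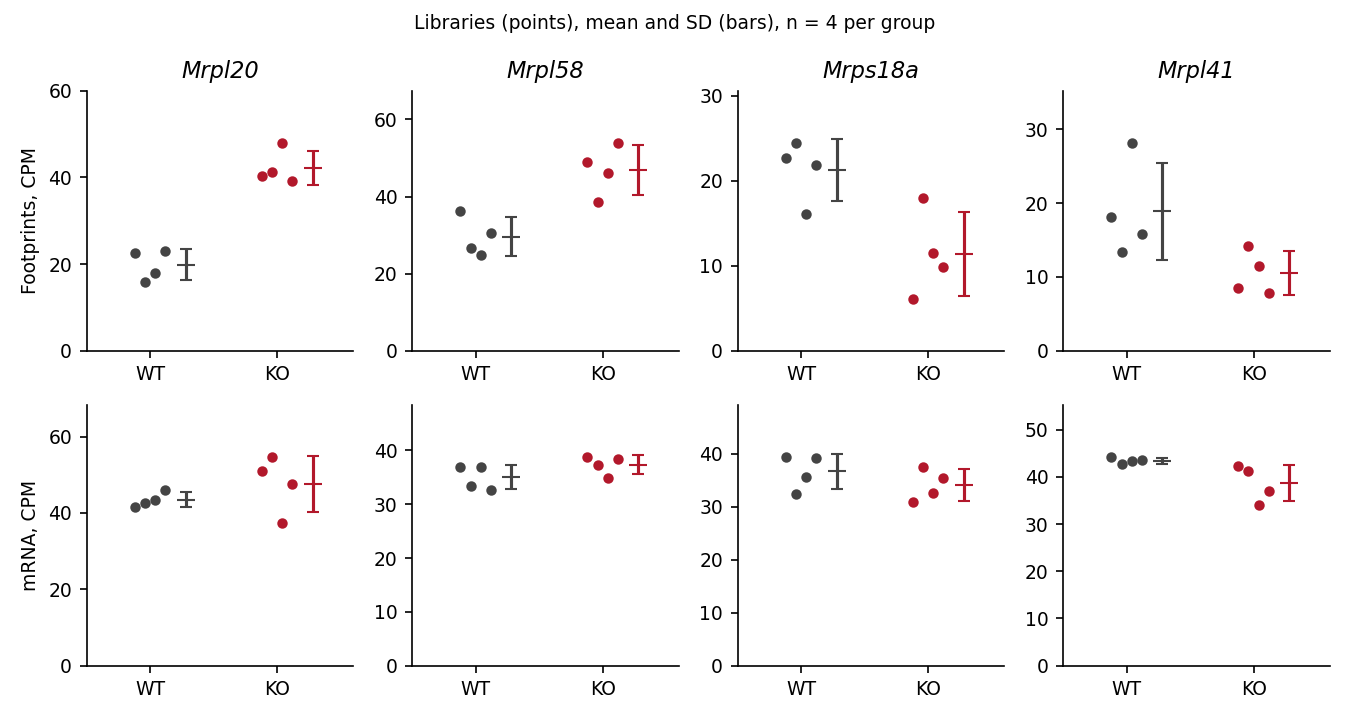
CPM per library (points) with the mean and SD (bars, n = 4) for 4 large-subunit genes, footprints above and mRNA below, WT in grey and KO in red. For Mrpl20 and Mrpl58 all KO footprint points lie above all WT points, while for Mrps18a and Mrpl41 KO library 2 reaches the WT range.

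Translational efficiency, the ratio of footprints to mRNA tested as an interaction in 1 model, gave the same picture. Of 74 genes tested, 0 passed edgeR, as did 0% of all 9673 genes tested. An unadjusted p under 0.05 was found for 6 (8.11%), against 10.8% of all genes tested. DESeq2 called 1 gene, Mrpl20, among 144 of all genes, and limma 0. There were 33 positive and 41 negative changes with a median of −0.04 (0.00 over all genes). The 95% interval lay within a 2-fold change for 34 genes.

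The change in translational efficiency of Mrpl20 was 0.97 ± 0.22 on the log2 scale (SE, n = 4 libraries of each kind and genotype, 95% interval 0.51 to 1.44, adjusted p = 0.165 in edgeR). In DESeq2 it was 0.99 ± 0.23 (adjusted p = 0.00995). The values for Mrpl58 (0.58 ± 0.20), Mrpl39 (0.55 ± 0.26), Mrps16 (0.95 ± 0.42) and Mrps18c (0.98 ± 0.45) were positive, with edgeR adjusted p values of 0.316 to 0.439. Mrps16, whose footprints were too few for the test of footprints alone, had 9, 18, 11 and 11 of them in WT and 12, 8, 6 and 6 in KO. Without KO library 1 its change was 0.56 and without KO library 2 it was 1.40. Mrps18a (−0.65), Mrpl51 (−0.59), Mrpl41 (−0.58), Mrpl37 (−0.56) and Mrpl38 (−0.48) had negative changes, with edgeR adjusted p values of 0.432 to 0.514. Without KO library 2 the change was −1.08 for Mrps18a, −1.03 for Mrpl37 and −0.85 for Mrpl41. Without WT library 3 it was −0.30 for Mrpl41 and −0.28 for Mrpl38. It was −0.40 for Mrpl37 without KO library 3 and −0.50 for Mrps18a without WT library 2.

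The 3 relatives of bacterial S18 went different ways in this measure without any passing. Mrps18a in the large subunit stood at −0.65 ± 0.29, Mrps18b in the small subunit at 0.06 ± 0.57 and Mrps18c, also in the small subunit, at 0.98 ± 0.45 (log2 change in translational efficiency, SE). Mrps18b had 3, 7, 6 and 8 footprints in WT and 0, 6, 2 and 3 in KO, and Mrps18c had 15, 9, 13 and 22 in WT, against 7, 28, 8 and 5 in KO. In CPM, Mrps18c had 8.50, 2.79, 4.76 and 8.29 in WT, against 8.55, 14.8, 15.4 and 4.91 in KO, with KO libraries 2 and 3 the highest and the groups overlapping. Differences among the 3 were not tested. Their mRNA log2 fold changes were −0.10, 0.11 and −0.05. Mrps36 had a change in translational efficiency of −0.80 ± 0.56 and an mRNA log2 fold change of −0.02 ± 0.10.

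**Figure D5:**
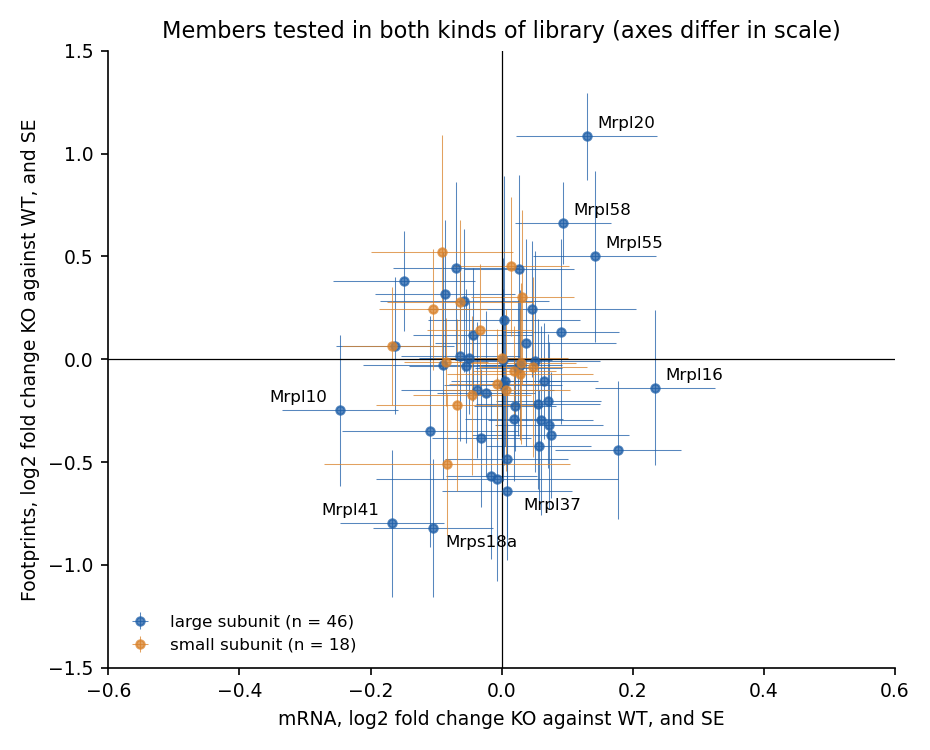
Log2 fold change between KO and WT in mRNA (horizontal) and footprints (vertical), with SE, for the 64 genes tested in both, on axes of different scale. Points lie within 0.25 of 0 in mRNA and spread from −0.82 for Mrps18a to 1.08 for Mrpl20 in footprints.

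Genes that work with the mitochondrial ribosome likewise gave 0 passing genes in edgeR in each of the 3 comparisons. For the 5 mitochondrial ribosomal proteins with other names, mRNA log2 fold changes ran from −0.03 to 0.07 and footprint changes from −0.26 to 0.04, with Dap3 at 0.06 and −0.18. For the genes listed as mitochondrial translation factors the median change was −0.05 over 17 genes in mRNA and −0.20 over 9 in footprints. Tufm was at 0.12 in mRNA and −0.70 in footprints, and Mtif2, an initiation factor, at −0.16 and −0.56. For assembly and rRNA modification factors the medians were 0.02 over 26 genes and 0.04 over 15, with Mterf4, the partner of the rRNA methyltransferase Nsun4, at 0.32 in mRNA and the helicase Ddx28 at −0.70 in footprints. Nuclear complex I subunits had medians of −0.01 over 37 genes in mRNA and −0.09 over 36 in footprints. Cytosolic ribosomal proteins had 66 negative of 77 mRNA changes (median −0.12) and 30 negative of 70 footprint changes (median 0.11), with 0 passing. In mRNA the mitochondrial ribosomal proteins were evenly divided, and the difference between the families was not tested.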

How the data were processed

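Raw gene counts of 8 footprint and 8 mRNA libraries, with gene lengths in bases, were deposited by the authors, as were their RPKM tables, made separately for each kind. The submitters' processing notes name TopHat2 and mm10. The counter, annotation release, strand setting and filters are not given in the sources used here. The mRNA columns were matched to libraries by name.

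Counts were fitted over all genes with edgeR 4.0.16 in R 4.3.3 (TMM scaling, quasi-likelihood test, Benjamini-Hochberg adjusted p under 0.05), with a positive log2 fold change meaning more in KO. Footprints were filtered with filterByExpr (minimum count 10), mRNA at a mean of at least 1 RPKM, and ratios at a mean of at least 1 RPKM in both kinds. The contrast within WT took protein-coding genes alone. CPM use TMM library sizes. Coordinates are those of the deposited table (mm10), and promoter sequences those of RefSeq GRCm38.p6.

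Named genes were those past the threshold (up to 8 per direction by p) or, where fewer than 5 passed, the 5 lowest p per direction, the 5 highest and lowest levels, the S18 family, Mrps36, and genes left out by a filter. The genes, lists and rules were chosen with earlier results of these data known. Alternatives were DESeq2 1.42.0, limma 3.58.1 (log2 of RPKM plus 0.1 or plus 1), RLE scaling, other filters, protein-coding genes alone, blocks, and leaving out libraries. The edgeR fits of the 4 comparisons were tested on simulated counts.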

Additional observations from a re-analysis of the deposited data

Results flagged for a closer look

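Reads were also assigned to pseudogenes of the family, which are not among the 78 protein-coding genes. Over the 8 mRNA libraries, Mrpl48-ps had 153 counts, Mrpl23-ps1 had 76, Mrps36-ps2 had 18 and Mrps36-ps1 had 16, all above the 3 counts that a count of 0 allows, while Mrps36-ps3 had 0. All 5 had 0 footprints. Mrpl48-ps had 14 to 17 mRNA counts in the WT libraries and 16 to 28 in the KO libraries, against 8126 mRNA counts in all for Mrpl48. Near-identical copies can share reads, so the counts of Mrpl48, Mrpl23 and Mrps36 are uncertain by an amount that was not measured here. Of 44 groups of 4 libraries checked for a single outlying value, 0 were flagged.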

How the results depend on the processing

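The footprint results rest on few counts: the median gene had 6 to 26.5 footprints in a KO library. The number of genes of the family that passed in KO against WT stayed at 0 for mRNA under every alternative, and for footprints and translational efficiency under all but 3. DESeq2 called 1 gene in footprints and 1 in translational efficiency, and edgeR with no filter on low counts called 1 in footprints; each time this was Mrpl20. Over all genes, the DESeq2 calls numbered 4 for footprints and 75 for mRNA, with 144 for translational efficiency, and those of edgeR with no filter 86 for footprints and 24 for mRNA. Within WT, 33 genes passed for footprints against mRNA, 37 in DESeq2, 36 with RLE scaling and 22 without WT libraries 1 and 2. Of the 42 genes with a mean of at least 5 RPKM in both kinds, 14 passed, and the share of all genes passing at this cut is not given here. Over all genes, 5454 passed in the main fit and 2454 to 5801 under the alternatives, so the number of calls moved outside the family too. These settings did not all test the same number of genes, so the numbers are not shares. The median change in translational efficiency was −0.17 with limma on log2(RPKM + 0.1). Of the genes named within WT, Mrpl38, Mrps12, Mrps16 and Mrpl57 did not pass in the KO libraries, and Mrpl57 did not without WT libraries 1 and 2. No gene named by its p in a comparison changed sign there, while the medians of mRNA and of translational efficiency, both near 0, did. Other single-gene values were not put through the full set of alternatives. Among them, the Mrpl20 ratio of footprints to mRNA was −0.05 in WT and 0.91 in KO. Without each library in turn, 0 genes of the family passed in the KO comparisons and 25 to 29 within WT, where 4683 to 4923 of all genes passed. The medians then ranged from −0.12 to −0.01 in footprints, −0.02 to 0.03 in mRNA, −0.11 to 0.04 in translational efficiency and 0.14 to 0.18 within WT. Same-numbered WT and KO libraries showed no pairing: their deviations correlated at −0.24 to 0.07 in footprints and −0.29 to 0.03 in mRNA. Each value lay below the highest one with another number. Footprint and mRNA libraries of 1 name correlated at −0.10 to 0.14, which does not settle whether they are paired. The value of the same name was above the highest with another number for WT libraries 3 and 4 and KO libraries 1 to 4. It was 0.05 against at most −0.01 in WT library 3 and 0.05 against at most 0.01 in WT library 4. In the KO libraries it was 0.03 to 0.08, against at most 0.02. WT library 1 gave 0.14 for both, and WT library 2 gave −0.10, against at most 0.12 with other WT numbers. With the replicate block, 0 genes passed in each KO comparison and 26 of the 33 within WT. Levels per coding length were not run, because protein sequences were not used here. The cause of these differences was not tested.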
